A study of Mus musculus with 4 samples.

Results

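Cytokine receptors decide which growth factors a blood progenitor can respond to, and several of them are the surface antigens by which these cells are sorted. The RNA of 9 such receptors was followed in hematopoietic stem cells (HSC) and common lymphoid progenitors (CLP) of wild-type (WT) and GRK6-/- mice. The members were the genes with the symbols Kit, Flt3, Csf1r, Tek, Il7r, Il2rg, Csf3r, Csf2rb and Il6st. They are 9 of the 12417 genes kept from the tables of 4 RNA-seq libraries. All 9 had a row in the libraries GRK6-/- HSC and WT CLP, 8 had one in WT HSC, and 7 in GRK6-/- CLP. Where a library has no row for a gene the value was taken as 0, and the reason for a missing row is not given in the files.

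The receptors belong to families that signal in different ways. Kit, Flt3, Csf1r and Tek are receptor tyrosine kinases: the ligand brings receptor chains together and their own kinase domains phosphorylate each other. Il7r, Il2rg, Csf3r, Csf2rb and Il6st are chains of the hematopoietin receptor family, which have no kinase of their own and signal through bound Janus kinases (JAK) and the STAT transcription factors. Kit is known as a marker of stem and early progenitor cells, Flt3 of multipotent and lymphoid-primed progenitors, and Il7r of lymphoid progenitors.

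Each group was 1 library made from bone marrow of C57BL/6 mice, and the mice of the study were 8 to 12 weeks old unless stated otherwise. By the labels, HSC were sorted as lineage negative (Lin-) cells positive for c-kit and sca-1, and CLP by the same gate with Il-7Ra added. A library pooled cDNA of 13 to 15 picked cells from 3 to 4 mice, after each cell had been amplified by 20 and then 10 cycles of PCR. GRK6-/- mice carry a deletion in the gene of GRK6, a kinase of G protein-coupled receptors, in every tissue and not in blood cells alone, and the WT mice of the study were littermates. There are no replicates within a group, so no value has an error between animals and the comparisons of single libraries have no test.

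The family resemblance among the hematopoietin receptors can be read in the transcripts. They carry the WSXWS box, a Trp-Ser-any-Trp-Ser motif of the extracellular cytokine-binding region, and it is shown here because it marks the members of this family. Below, the codons for Trp and Ser are in capitals and the codon between them in lower case, 5′ to 3′ on the coding strand, from the genome build mm9 and the GENCODE vM1 transcript with the longest coding sequence.
Il7r: TGGAGCgagTGGAGT
Il2rg: TGGAGTaaaTGGAGC
Csf3r: TGGAGCcccTGGAGC
Csf2rb: TGGAGCaagTGGAGC
Il6st: TGGAGTgacTGGAGT
Each of these genes held 1 box, and each box lay within 1 exon. They were at chr15:9440906-9440920 on the minus strand in exon 5 of Il7r, chrX:98461554-98461568 on the minus strand in exon 5 of Il2rg, chr4:125711774-125711788 on the plus strand in exon 7 of Csf3r, chr15:78175946-78175960 on the plus strand in exon 10 of Csf2rb and chr13:113280805-113280819 on the plus strand in exon 6 of Il6st. Kit, Flt3 and Tek had 0 boxes, and Csf1r was not searched. The middle codon differed in each box, and both Ser codons AGC and AGT were in use.

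The values are FPKM as deposited, that is, fragments scaled to transcript length and to the number of mapped fragments. Reverse transcription was primed with poly(dT), and how evenly reads cover each transcript is not given. Levels of different genes can thus be compared only roughly. The low values fell on steps of whole fragments, from which the tables were estimated to hold 2790000 to 4350000 fragments per library. Fragment numbers below are such estimates, and their exact 95% Poisson intervals cover counting error only, since the cDNA was amplified by PCR. All 10 housekeeping genes had a row in each library. Grk6 itself had 42.7 FPKM in WT HSC against 89.4 in GRK6-/- HSC, and 26.9 in WT CLP against 57.6 in GRK6-/- CLP. It was therefore higher in both libraries labelled GRK6-/-, against what the labels would give for an absent gene. The knockout removes exons 3 to 9, and 1 value per gene cannot show whether reads came from those exons. The names WT and GRK6-/- stand for the labels of the libraries throughout. Values given for the HSC pair or the CLP pair name the WT library first and the library labelled GRK6-/- second.

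The library labelled GRK6-/- CLP stood apart in markers of other cells. The summed level of 7 erythroid genes was 17488 FPKM there, with 4 of them present and Hba-a2 alone, an alpha globin, at 17219.5 FPKM, and 34.9 and 719.5 FPKM in the HSC pair and 19.5 FPKM in WT CLP. The library labelled GRK6-/- HSC thus also held more erythroid RNA than WT HSC, with Car1, a carbonic anhydrase of red cells, at 612 against 24.5 FPKM. Of the other marker lists, 7 stem cell genes summed to 137 and 97.7 FPKM in the HSC pair and 94.1 and 143 in the CLP pair. The stem cell sums thus did not separate HSC from CLP. The 6 T cell genes summed to 29.2 to 39.3 FPKM across libraries. Megakaryocyte genes (6) were higher in WT HSC and GRK6-/- CLP, at 150 and 117 FPKM, than in the others, at 13.1 and 13.5 FPKM, and 6 mast cell and basophil genes ranged from 9.69 FPKM in GRK6-/- CLP to 197 in WT HSC. As each group has 1 library, no genotype comparison in CLP can be made without it, and the comparison of CLP with HSC in WT does not use it. In pooled cells, fewer cells of a type and less RNA per cell cannot be told apart.

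**Figure D1:**
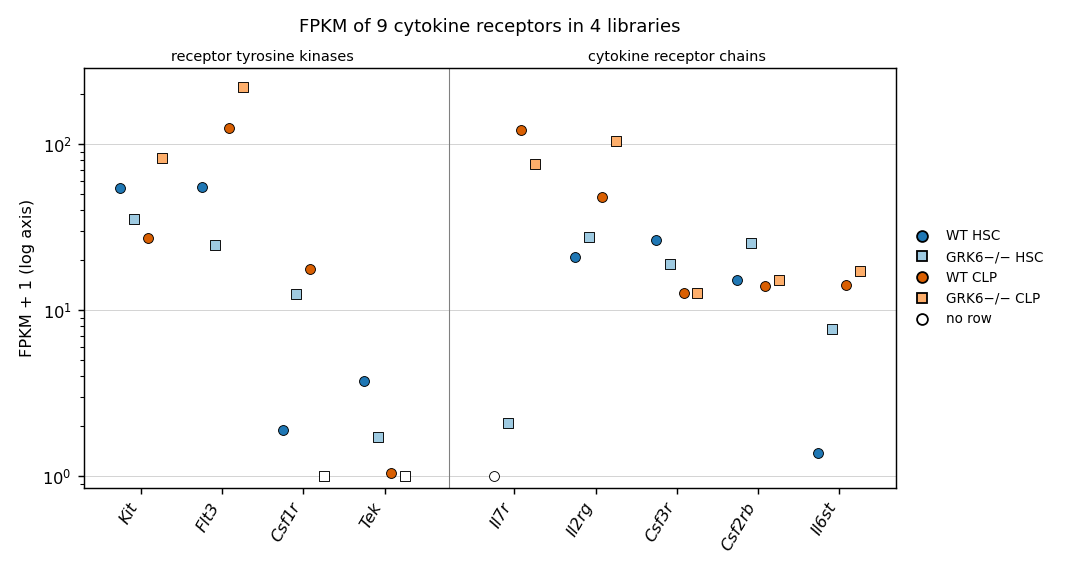
FPKM + 1 of the 9 receptors on a log axis, with 1 point per library (circles WT, squares GRK6-/-, blue HSC, orange CLP) and open symbols where the library has no row. Flt3, Il7r, Il2rg and Il6st lie higher in both CLP libraries than in both HSC libraries, and Tek and Csf3r lie lower.

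Kit, the receptor of stem cell factor (gene at mm9 chr5:75970941-76052747, plus strand), is part of the gate of every library, and its RNA was above that of 69.4% to 89.7% of the genes with a row in the same library. Its level was 53.3 and 34.4 FPKM in the HSC pair and 26.2 and 81.8 in the CLP pair, from an estimated 597 to 1195 fragments. The highest library was thus labelled GRK6-/- CLP and the lowest WT CLP, a ratio of 3.12. In HSC the library labelled GRK6-/- was the lower, at 0.645 times WT. In CLP it was the higher. The levels thus separated neither the populations nor the genotypes.

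Flt3, the receptor of Flt3 ligand (chr5:148142317-148212065, minus strand), was the member with the highest single value. It had 54.5 and 23.8 FPKM in the HSC pair and 124 and 219 in the CLP pair. Both CLP libraries lay above both HSC libraries. The CLP to HSC ratio was 2.27 in WT and 9.21 between the libraries labelled GRK6-/-. In HSC, the library labelled GRK6-/- had 0.436 times the WT level, and in CLP it had 1.77 times. The sort of HSC held no Flt3 term, and the study's flow cytometry divides the Lin- c-kit and sca-1 positive cells into Flt3 negative stem cells and Flt3 positive multipotent progenitors, so how many cells of each were picked is not known.

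Csf1r, the receptor of CSF1 and IL-34 on monocytes and macrophages (mm9 chr18:61265226-61291803, plus strand), had a row in 3 libraries. Its level was 0.889 FPKM in WT HSC, from an estimated 12 fragments (interval 6.20 to 21.0), 11.6 in GRK6-/- HSC and 16.6 in WT CLP. It had no row in GRK6-/- CLP, where 3 fragments would have given 0.229 FPKM. In HSC the library labelled GRK6-/- thus had 13.0 times the WT value. Of 7 monocyte and macrophage genes, 6 had a row in each pair. In the library labelled GRK6-/- HSC, 3 of them were past the 2-fold change upward and 0 downward, beside 19.3% and 18% of all genes. In the library labelled GRK6-/- CLP, 0 were upward and 1 downward, beside 26.6% and 23.4% of all genes. The median log2 fold changes were 1.44 and -0.58. Cd68 and C1qb were lower in the library labelled GRK6-/- HSC than in WT HSC, and Irf8 was higher in GRK6-/- CLP than in WT CLP. Cd68, a macrophage glycoprotein, had 31.0 and 19.5 FPKM in the HSC pair and 43.9 and 26.4 in the CLP pair. The summed level of the list was 32.4 and 79.4 FPKM in the HSC pair and 236 and 237 in the CLP pair. Of these genes 3 and 5 had a row in the HSC pair and 6 and 4 in the CLP pair, Ccr2 had none of its own, and Irf8, which lymphoid progenitors also express, gave 1.12 and 41.2 FPKM of the sums in the HSC pair and 152 and 190 in the CLP pair. Ly86, which encodes MD-1, a partner of the toll-like protein RP105, had no row in WT HSC, 13.7 FPKM in GRK6-/- HSC, and 27.8 and 18.3 FPKM in the CLP pair. Their part in the Csf1r values was not tested.

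Tek, the angiopoietin receptor Tie2 of endothelium and of quiescent stem cells (chr4:94405980-94541667, plus strand), had the lowest peak level of the members. It had 2.72 FPKM in WT HSC from an estimated 36 fragments (25.2 to 49.8), and 0.717 in GRK6-/- HSC from 13 (6.92 to 22.2). WT CLP had 0.0482 FPKM, which is 1 fragment (0.0253 to 5.57), and GRK6-/- CLP had no row, where 3 fragments would have given 0.231 FPKM. Tek was thus higher in both HSC libraries than in CLP. Of 6 endothelial markers, Kdr had no row and Cdh5 was at most 0.113 FPKM, but the others were present. Pecam1 had 12.3 and 9.07 FPKM in the HSC pair and 26.1 and 6.77 in the CLP pair. Esam had 8.04 and 12.5 FPKM in the HSC pair and Emcn 7.67 and 15.2. Both had no row in WT CLP, and 15.9 and 10.1 FPKM in GRK6-/- CLP. Tie1 had 8.80 FPKM in WT HSC and 2.48 to 3.20 in the others. The sum of the list was 29.3 to 40.0 FPKM across libraries.

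Il7r encodes the alpha chain shared by the receptors for IL-7 and TSLP (chr15:9435916-9459631, minus strand, 8 exons). CLP were sorted for its protein, so its RNA in CLP against HSC checks the sort and is not a finding. It had no row in WT HSC, where 3 fragments would have given 0.324 FPKM, 1.08 FPKM in GRK6-/- HSC from an estimated 13 fragments (6.92 to 22.2), 120.1 in WT CLP and 75.1 in GRK6-/- CLP. The CLP libraries therefore carried the RNA of the antigen used to sort them. Between the libraries labelled GRK6-/-, CLP had 69.4 times the HSC level. Within CLP, the library labelled GRK6-/- had 0.625 times the WT value, with 672 against 1675 estimated fragments. Genes of lymphoid progenitors went the same way between populations: their summed level over 10 genes was 114 and 93.3 FPKM in the HSC pair, nearly all from Dntt, and 2730 and 2502 FPKM in the CLP pair. Within that list Ly6d and Blnk had no row in either HSC library, and Pax5 had none in any library. The near-equal sums of the CLP pair hid differences by gene. In the library labelled GRK6-/- CLP, 4 of 9 were past the 2-fold change upward and 2 downward, beside 26.6% and 23.4% of all genes. Vpreb1 had 16.4 FPKM in WT CLP and 246 in GRK6-/- CLP. Rag2 had 94.5 FPKM in WT CLP and no row in GRK6-/- CLP.

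Il2rg is the common gamma chain, which pairs with Il7r to form the IL-7 receptor and also serves IL-2, IL-4, IL-9, IL-15 and IL-21 (chrX:98459717-98463594, minus strand). Unlike Il7r, it was expressed in all libraries, at 20.0 and 26.5 FPKM in the HSC pair and 47.4 and 104 in the CLP pair. Both CLP libraries were above both HSC libraries, by 2.37 times in WT and 3.92 times between the libraries labelled GRK6-/-. In CLP the library labelled GRK6-/- had 2.19 times the WT level, the opposite direction to Il7r. The FPKM of the pair was thus unequal in each CLP library, with a higher value for Il7r than Il2rg in WT CLP and a lower one in GRK6-/- CLP.

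Il6st, gp130, is the shared chain of the receptors for IL-6, IL-11, LIF and oncostatin M (chr13:113265216-113297068, plus strand). It had 0.374 FPKM in WT HSC, from an estimated 6 fragments (2.20 to 13.1), and 6.69 in GRK6-/- HSC from 132 (110 to 157). The CLP libraries had 13.3 FPKM in WT and 16.3 in GRK6-/-, above both HSC libraries. In HSC the library labelled GRK6-/- had 17.9 times the WT value, while in CLP the ratio was 1.23. WT HSC was thus the library with little Il6st.

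Csf3r, the receptor of G-CSF on neutrophils and their progenitors (chr4:125701794-125722219, plus strand), was lower in both CLP libraries than in both HSC libraries. The levels were 25.5 and 18.0 FPKM in the HSC pair and 11.7 in each CLP library. The HSC to CLP ratio was 2.18 in WT and 1.53 between the libraries labelled GRK6-/-. The summed level of 10 neutrophil and myeloid genes was higher in HSC, at 17848 and 11341 FPKM in the HSC pair and 9385 and 7855 FPKM in the CLP pair. Elane, neutrophil elastase, was the highest at 3516 to 7008 FPKM. By gene the list was divided. In CLP against HSC, 3 of 9 were past the 2-fold change upward and 3 downward in WT, beside 21.8% and 24.7% of all genes. Between the libraries labelled GRK6-/-, 3 of 9 were upward and 2 downward, beside 22.3% and 23.4%. The part of these neutrophil and myeloid genes in the Csf3r values was not tested.

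Csf2rb is the common beta chain of the receptors for GM-CSF, IL-3 and IL-5 (chr15:78156420-78184277, plus strand), and it varied least of the members. It had 14.1 and 24.3 FPKM in the HSC pair and 12.9 and 14.3 in the CLP pair, so that the highest library had 1.88 times the lowest. Among the 9 members it alone was higher in both libraries labelled GRK6-/- than in both WT libraries, in CLP by 1.10 times. Mice carry a near copy, Csf2rb2, the IL-3 specific beta chain, whose coding sequence was 95.2% identical over 2631 aligned bases. Reads from the copies could have been split between them, so both values are uncertain. Csf2rb2 was given 0.629 and 0.584 FPKM in the HSC pair and 1.99 and 1.84 in the CLP pair.

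For the comparisons, a gene was counted as past the 2-fold change when log2 of the ratio of FPKM + 1 was at least 1 in size. The scale understates changes of low genes, and where 1 library has no row the value enters the counts, medians and signs with that library taken as 0 and is no measure of size. The comparisons share libraries, so they are not independent of each other.

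Between CLP and HSC most of the members were past the 2-fold change, the greater number of them upward. In WT, 7 of 9 members were past the 2-fold change, 5 higher in CLP (Il7r, Il6st, Csf1r, Il2rg and Flt3) and 2 lower (Tek and Csf3r), while over all genes 46.5% of 11202 were, 21.8% higher and 24.7% lower. Kit missed the threshold, at -0.998. The median log2 fold change was 1.17 over the members and -0.08 over all genes. Between the libraries labelled GRK6-/-, 6 of 9 members were past it, 5 higher in CLP (Il7r, Flt3, Il2rg, Kit and Il6st) and Csf1r lower for want of a row. Over all 11708 genes there 45.6% were past it, 22.3% higher and 23.4% lower, with medians of 1.17 and -0.08. Il7r is in these counts by the sort, and the members had been chosen as receptors of these cells.

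The log2 fold changes of CLP against HSC were, in WT and then between the libraries labelled GRK6-/-, 1.17 and 3.15 for Flt3, 1.21 and 1.93 for Il2rg, and 3.37 and 1.17 for Il6st. For Csf3r they were -1.06 and -0.58, and for Csf2rb -0.11 and -0.73. For Kit the signs were opposite, at -0.998 and 1.23. Ordered by library alone, 4 members were higher in both CLP than in both HSC libraries (Flt3, Il7r, Il2rg and Il6st), a pattern held by 14.2% of all 12417 genes. Tek and Csf3r were lower in both CLP libraries, as were 17.6% of all genes.

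The libraries labelled GRK6-/- did not differ from WT in 1 direction over the receptors. In HSC, 5 of 9 members were past the 2-fold change, with Csf1r, Il6st and Il7r higher and Flt3 and Tek lower in the library labelled GRK6-/-. Over all 11624 genes 37.4% were past it, 19.3% higher and 18% lower. The log2 fold changes were 2.73 for Csf1r, 2.48 for Il6st, -1.16 for Flt3 and -1.11 for Tek. Beside these differences, the erythroid sum was 719.5 FPKM in the library labelled GRK6-/- HSC against 34.9 in WT HSC and the megakaryocyte sum 13.1 against 150 FPKM, and the part of such cells was not tested. Changes as large as that of Csf1r were held by 5.78% of genes, and as large as that of Flt3 by 31.7%. Il2rg, Csf2rb, Csf3r and Kit stayed between -0.62 and 0.75. The medians were 0.39 for the members and 0.05 for all genes.

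In CLP, 3 of 9 members were past the 2-fold change, below the background of 50% of 11191 genes, of which 26.6% were higher and 23.4% lower in the library labelled GRK6-/-. Kit and Il2rg were higher there, with log2 fold changes of 1.61 and 1.12, and Csf1r had no row. Flt3 was at 0.82 and Il7r at -0.67, inside the threshold, and Il6st, Csf2rb and Csf3r lay between 0.00 and 0.28. The members' median was 0.13 and that of all genes 0.05. By library order, Csf2rb alone was higher in both libraries labelled GRK6-/- than in both WT libraries, an order found for 14.4% of genes. The margin was small, at 14.3 FPKM in GRK6-/- CLP against 14.1 in WT HSC. Lower in both than in both WT libraries were 0 members, against 13.1% of genes. Within each pair, Il2rg and Il6st were also higher in the library labelled GRK6-/-. Tek was lower in each, in CLP with no row against 1 estimated fragment. The genotype difference had opposite signs in HSC and CLP for 5 of 9 members, 55.6%, and for 50% of the 10398 genes compared in both. Of these members, Il7r and Csf1r lack a row in 1 library, and the sign of Csf3r in CLP, at 0.00, turned to -0.01 when the libraries were set to equal upper quartiles.

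**Figure D2:**
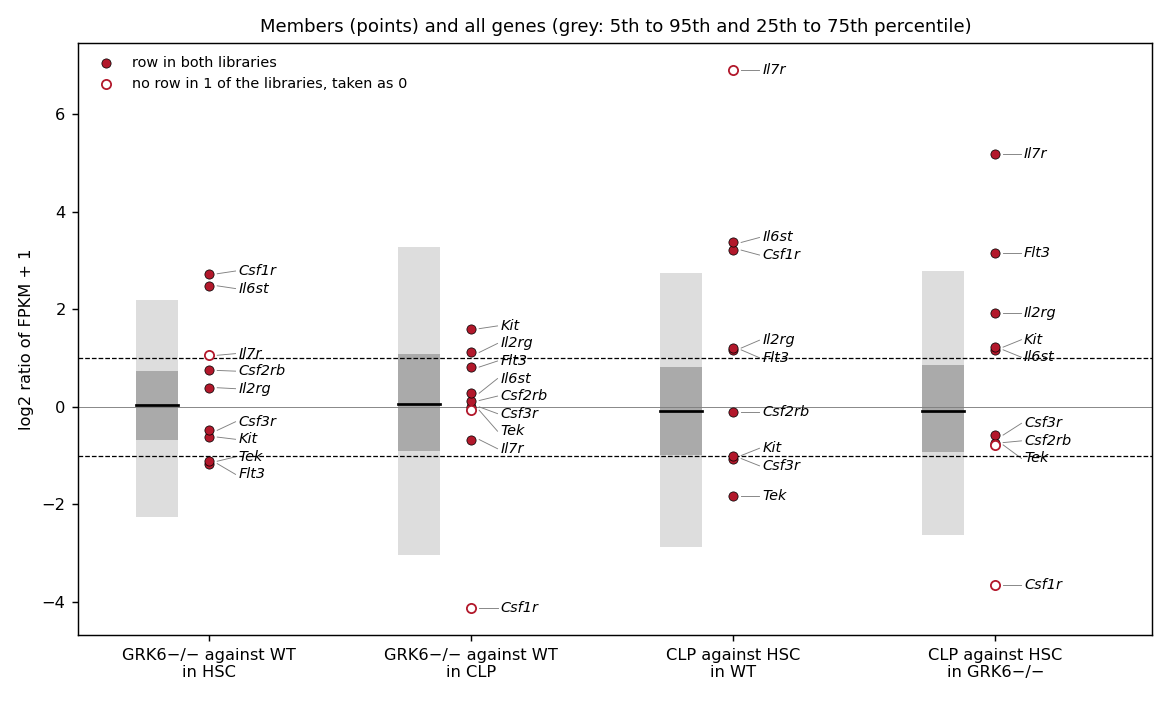
Log2 ratio of FPKM + 1 for each receptor (points) in 4 comparisons of single libraries, beside the spread of all genes (dark grey 25th to 75th, light grey 5th to 95th percentile, black line median). Open points lack a row in 1 library and dashed lines mark the 2-fold change. Of the members, 7 and 6 lie past it between populations, and 5 and 3 between genotypes.

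The RNA was then set beside the surface phenotype used to sort and to define these cells. The antigens of the sort were present where the gates require them, except that sca-1 could not be read on its own. Ly6a, which encodes sca-1, had no row in any library. In WT HSC it was named in a joint row of 5 genes of the Ly6 locus with 1998 FPKM, at mm9 chr15:74810242-75262259. The same interval stood under 9030619P08Rik alone in the other libraries, with 1792 FPKM in GRK6-/- HSC, and 1537 and 1099.55 FPKM in the CLP pair. Thus reads of the locus were abundant in every library, and which gene gave them cannot be told.

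Antigens outside the sort were read in the same way. Cd34, a sialomucin of progenitors that is absent from the long-term stem cells of the adult mouse, had 151 and 338 FPKM in the HSC pair and 165 and 244 in the CLP pair. Slamf1, the stem cell antigen CD150, had 8.91 FPKM in WT HSC and 0.136 to 0.689 in the others. Cd48, which is low on stem cells and present on progenitors, had 60.2 FPKM in WT HSC and between 98.7 and 111 in the others. The HSC libraries thus held RNA of Cd34, Flt3 and Cd48. By Flt3 and CD34 the study's flow cytometry divides long-term stem cells from short-term stem cells and multipotent progenitors. Its lymphoid and myeloid competent HSC are defined as CD48 negative. The gate in the labels has no term for these antigens. Fcgr3, the Fc gamma receptor III, was lower in CLP, at 27.6 FPKM in WT and 48.9 in GRK6-/-, than in HSC, at 115 and 113 FPKM. Fcgr2b had a row only in WT CLP, with 23.8 FPKM. The study's flow gate for CLP, though not the sort given in the labels, excludes cells positive for these Fc receptors.

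Of 7 genes for the lineage gate, Ly6g and Cd8a had no row in any library. Cd3g, a chain of the T cell receptor complex, had 12.1 and 7.93 FPKM in the HSC pair and 0.257 and 0.403 in the CLP pair. Cd4 had a row only in GRK6-/- CLP, with 9.63 FPKM. Ptprc, the gene of CD45 and its B220 form, was present in all, with 39.2 and 27.1 FPKM in the HSC pair and 43.5 and 69.7 in the CLP pair, while Itgam and Cd3e were at most 3.21 and 0.591 FPKM. The summed level of the list was 79.8 FPKM in the library labelled GRK6-/- CLP, most of it from Ptprc, and 35.9 to 54.7 FPKM in the others. Of the other genes of the list with a row, Cd4 was highest in that library too, while Cd3g, Cd3e and Itgam were highest in an HSC library. In the library labelled GRK6-/- CLP, Kit, Flt3, Il2rg and Il6st were also highest, and the part of lineage cells in those values was not tested.

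**Figure D3:**
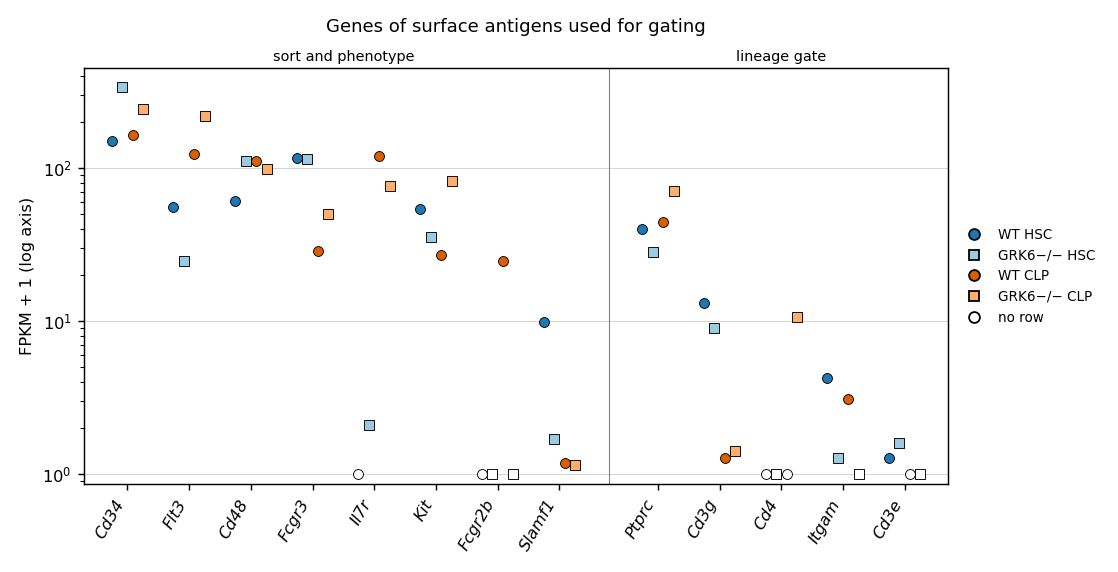
FPKM + 1 on a log axis of genes for antigens used in sorting or phenotyping (left) and in the lineage gate (right), 1 point per library, with open symbols for no row. Il7r is high in the CLP libraries only, and Cd4 has a row only in GRK6-/- CLP, at 9.63 FPKM. Ly6a, Ly6g and Cd8a have no row of their own and are not drawn.

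A shared chain works only with its partner, and some partners had no row where the shared chain was present. Of 20 partner chains and other hematopoietic cytokine receptors, 15 had a row in HSC, with 3 past the 2-fold change upward and 6 downward in the library labelled GRK6-/-. In CLP it was 7 upward and 4 downward of 15. In CLP against HSC it was 2 upward and 7 downward of 14 in WT, and 4 upward and 5 downward of 16 between the libraries labelled GRK6-/-. The medians were -0.64, 0.49, -1.04 and -0.05 in that order, on the log2 scale of FPKM + 1. Over all genes the shares upward and downward were 19.3% and 18% in HSC, 26.6% and 23.4% in CLP, and, for CLP against HSC, 21.8% and 24.7% in WT and 22.3% and 23.4% between the libraries labelled GRK6-/-.

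Among the partners of Il7r and Il2rg, Crlf2, which joins Il7r in the TSLP receptor, had 34.3 and 8.85 FPKM in the HSC pair and 23.2 and 32.9 in the CLP pair. It was thus present in WT HSC, where Il7r had no row. Il4ra, the IL-4 receptor alpha chain, was high in WT CLP alone, at 96.2 FPKM, and between 2.91 and 7.69 in the others. Il2rb, the beta chain for IL-2 and IL-15, had 4.31 and 8.74 FPKM in the HSC pair and no row in CLP. Il2ra, the IL-2 receptor alpha chain, had 14.7 FPKM in GRK6-/- CLP and at most 0.0581 elsewhere. Il15ra had 27.97 and 14.6 FPKM in the HSC pair, no row in WT CLP and 10.47 FPKM in GRK6-/- CLP. Il21r had 0.841 FPKM in GRK6-/- CLP and 9.15 to 13.7 in the others. No row was found for Il9r.

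For Csf2rb, Csf2ra, the GM-CSF receptor alpha chain, had 48.0 and 30.4 FPKM in the HSC pair and 12.7 and 42.1 in the CLP pair. Il3ra, which binds IL-3, had 5.68 and 15.9 FPKM in the HSC pair and 27.5 and 9.80 in the CLP pair, so WT CLP was lowest for the first chain and highest for the second. Il5ra had no row in any library. For Il6st, Il6ra, the IL-6 receptor alpha chain, had 3.84 and 11.6 FPKM in the HSC pair and 5.66 and 2.37 in the CLP pair. Il11ra1, the IL-11 receptor alpha chain, had 109 FPKM in WT HSC, the library with least Il6st, 16.4 in GRK6-/- HSC, 18.5 in GRK6-/- CLP and no row in WT CLP. Lifr had a row only in GRK6-/- CLP, with 6.36 FPKM, and Osmr had none. Il27ra, the IL-27 receptor chain that pairs with Il6st, had 25.6 FPKM in GRK6-/- CLP, 1.06 in WT HSC, 0.174 in WT CLP and no row in GRK6-/- HSC. Beside Tek, Tie1, an orphan receptor that pairs with it, had 8.80 FPKM in WT HSC and 2.48 to 3.20 in the others.

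Of 22 ligands of the members and of related receptors, 10 had a row in at least 1 library. Il7, Csf3, Csf2, Il3, Il5 and Il6, which encode IL-7, G-CSF, GM-CSF, IL-3, IL-5 and IL-6, had none. Kitl, stem cell factor, had 0.0936 FPKM in GRK6-/- HSC alone, and Il34 had 0.213 FPKM in WT HSC alone. Csf1 had 0.164 and 1.03 FPKM in the HSC pair, 3.05 FPKM in WT CLP and no row in GRK6-/- CLP, the library that also had no Csf1r row.

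Ligands of the shared chains were uneven. Osm, oncostatin M, had 0.571 and 3.87 FPKM in the HSC pair and 0.500 and 13.0 in the CLP pair, and Lif had 0.0857 FPKM in WT HSC, 9.22 in GRK6-/- CLP and no row in the others. Il2 had 0.861 and 2.93 FPKM in the HSC pair, no row in WT CLP and 0.892 FPKM in GRK6-/- CLP. Il4, Il11, Il21 and Angpt2 had no row in any library. Angpt1, the Tek ligand angiopoietin 1, was present in every library, with 55.2 FPKM in WT HSC and 33.5 to 35.8 in the others. Flt3l had 52.0 and 24.1 FPKM in the HSC pair and 0.242 and 15.5 in the CLP pair, the reverse of Flt3 between the WT libraries. Il15 had 17.6 and 29.0 FPKM in the HSC pair and 32.5 and 75.1 in the CLP pair, the same order of libraries as Il2rg. Tslp, a ligand of the Il7r and Crlf2 pair, was lowest in GRK6-/- CLP, with 7.90 and 10.1 FPKM in the HSC pair and 30.5 and 0.357 in the CLP pair. Past the 2-fold change in the library labelled GRK6-/- were 2 ligands upward and 1 downward of 10 in HSC, and 4 upward and 2 downward of 8 in CLP. In CLP against HSC the counts were 2 upward and 1 downward of 9 in WT and 3 each way of 9 between the libraries labelled GRK6-/-. Over all genes 37.4%, 50%, 46.5% and 45.6% were past the 2-fold change in these comparisons.

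**Figure D4:**
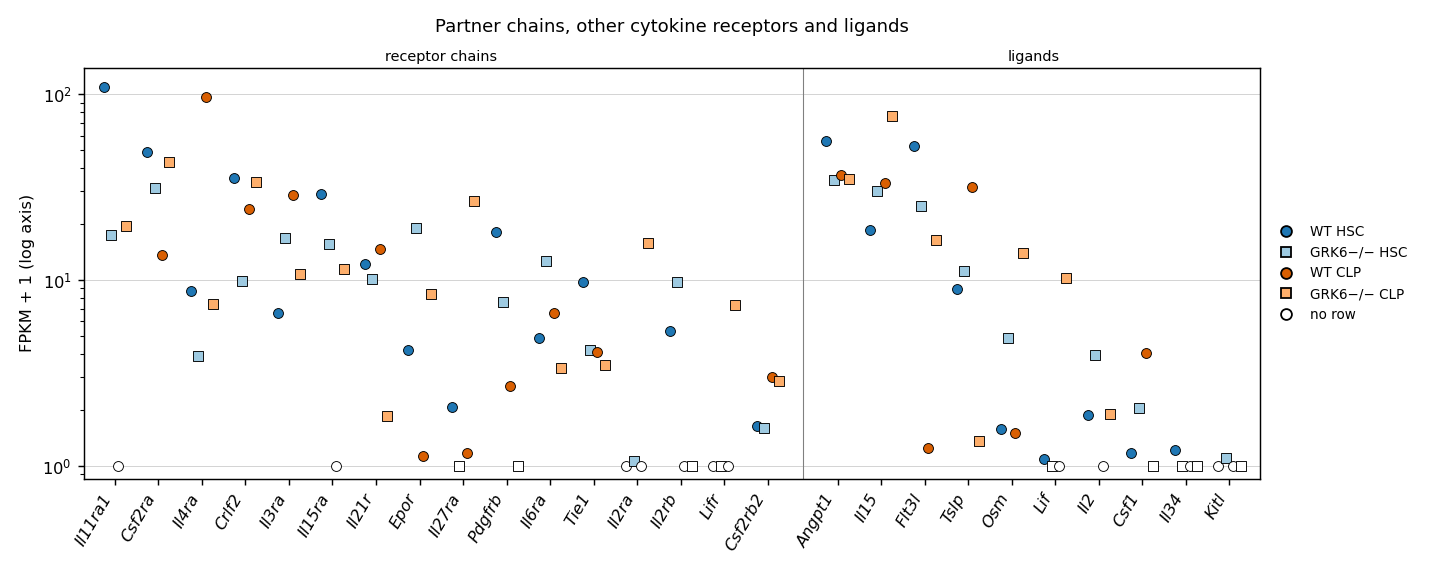
FPKM + 1 on a log axis of partner chains and other cytokine receptors (left) and of ligands (right), 1 point per library, ordered by mean level, with open symbols for no row; genes with no row in any library are not drawn. Il11ra1 is highest in WT HSC (109 FPKM) and Il4ra in WT CLP (96.2 FPKM).

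The kinases and STAT factors below the hematopoietin receptors were expressed in both populations. Of 10 genes, 9 had a row of their own, each in all 4 libraries except Jak2, which had none in WT CLP. Jak1, which binds Il7r and Il6st, had 38.7 and 51.8 FPKM in the HSC pair and 38.9 and 25.4 in the CLP pair. Jak3, the partner kinase of Il2rg, stood only in a joint row with Insl3, with 145 and 50.7 FPKM in the HSC pair and 121.5 and 153.9 in the CLP pair, so its own level is uncertain. Stat5a, a main effector of IL-7 signals, had 13.0 and 33.6 FPKM in the HSC pair and 40.9 and 4.07 in the CLP pair, while the related Stat5b had 16.5 to 24.0 FPKM in all. Stat5a was thus lowest in GRK6-/- CLP. Stat4, an effector of IL-12 signals, had 15.1 and 23.4 FPKM in the HSC pair and 32.3 and 74.0 in the CLP pair. Stat3, the effector of Il6st and Csf3r, had 49.1 and 14.1 FPKM in the HSC pair and 26.5 and 23.7 in the CLP pair. The library labelled GRK6-/- had 2 of the 9 genes past the 2-fold change upward and 3 downward in HSC, and 3 upward and 1 downward in CLP. CLP against HSC had 2 each way in WT, and 3 upward and 2 downward between the libraries labelled GRK6-/-. These counts of 4 or 5 in 9 stand beside 37.4% and 50% of all genes by genotype in HSC and CLP, and 46.5% and 45.6% between populations.

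Negative regulators and adaptors of receptor signals include genes that cytokines induce. All 16 had a row in every library. In CLP against HSC, 6 were past the 2-fold change upward and 2 downward in WT, and 6 upward and 0 downward between the libraries labelled GRK6-/-, where all genes had 21.8% and 24.7%, and 22.3% and 23.4%. Cish and Socs1, feedback inhibitors that STAT5 induces, were high in CLP: Cish had 3.48 and 1.87 FPKM in the HSC pair and 29.4 and 98.0 in the CLP pair. Socs1 had 1.26 and 0.477 FPKM in the HSC pair and 10.6 and 45.5 in the CLP pair. Both were above both HSC libraries in each CLP library. Socs2, in the same list, had 0.520 and 0.847 FPKM in the HSC pair and 0.740 and 14.9 in the CLP pair. Its value in WT CLP thus lay between those of the HSC pair. Ptpn6, the phosphatase SHP-1 that dampens Kit, was level at 49.7 to 64.0 FPKM, and Shc1, an adaptor, had 13.3 and 24.6 FPKM in the HSC pair and 51.1 and 12.6 in the CLP pair. By genotype, 2 were upward and 4 downward in HSC, and 5 each way in CLP, in the library labelled GRK6-/-, beside 19.3% and 18% of all genes in HSC and 26.6% and 23.4% in CLP.

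**Figure D5:**
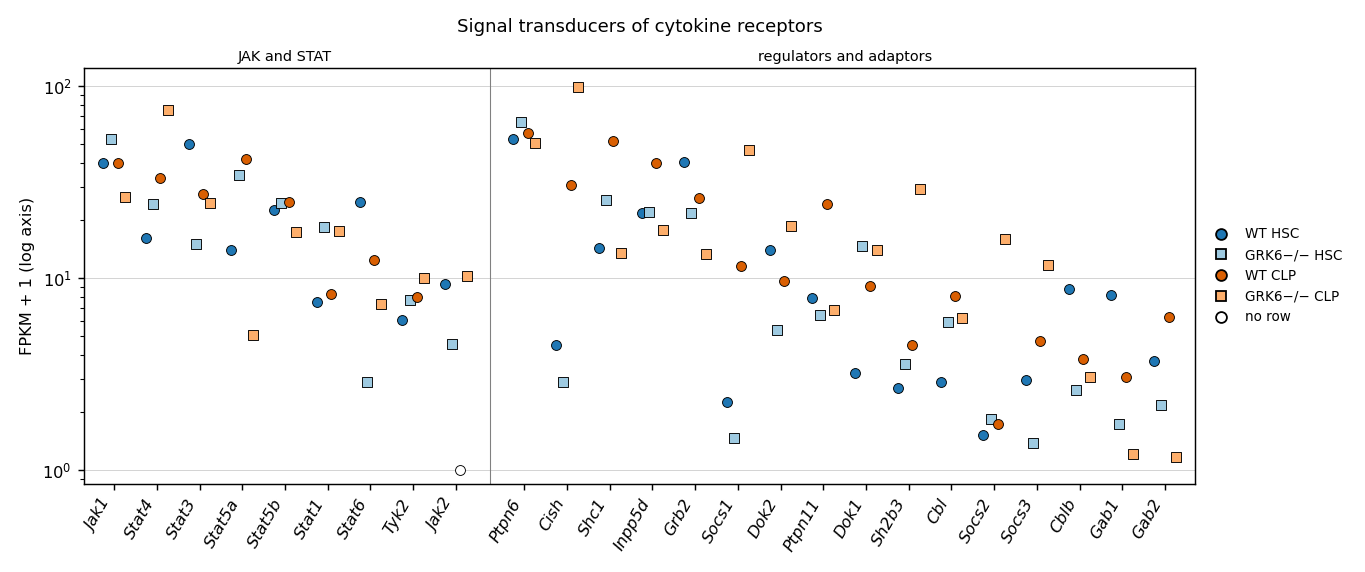
FPKM + 1 on a log axis of JAK and STAT genes (left) and of regulators and adaptors (right), 1 point per library, with an open symbol for no row. Cish and Socs1 lie higher in both CLP libraries (29.4 and 98.0 FPKM, 10.6 and 45.5 FPKM) than in HSC, and Stat5a is lowest in GRK6-/- CLP (4.07 FPKM).

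The 4 members with more RNA in both CLP libraries were looked at for what their promoters share. RefSeq windows of 300 bases, from 250 before to 50 after the start of the gene, were available for 7 of the 9 members in the build GRCm38.p6, which is not that of the FPKM tables. Motifs were searched on both strands as the letters AGGAAG for ETS factors such as PU.1, TGTGGT for RUNX, AGATAA for GATA and CACCTG for E-box proteins. The windows below are given on the strand of the gene, and the capitals mark each match of any of the 4 motifs.
Il7r: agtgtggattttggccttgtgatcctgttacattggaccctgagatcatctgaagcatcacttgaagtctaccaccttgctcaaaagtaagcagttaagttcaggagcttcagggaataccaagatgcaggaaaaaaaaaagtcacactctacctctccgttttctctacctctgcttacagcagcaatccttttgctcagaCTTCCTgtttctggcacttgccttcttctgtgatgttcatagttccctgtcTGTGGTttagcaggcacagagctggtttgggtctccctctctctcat
Il2rg: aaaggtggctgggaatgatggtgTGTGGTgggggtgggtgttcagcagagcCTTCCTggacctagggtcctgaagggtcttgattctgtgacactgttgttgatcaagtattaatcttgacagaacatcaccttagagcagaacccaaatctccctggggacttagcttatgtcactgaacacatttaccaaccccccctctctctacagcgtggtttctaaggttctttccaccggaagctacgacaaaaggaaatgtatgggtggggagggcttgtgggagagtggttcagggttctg
Flt3: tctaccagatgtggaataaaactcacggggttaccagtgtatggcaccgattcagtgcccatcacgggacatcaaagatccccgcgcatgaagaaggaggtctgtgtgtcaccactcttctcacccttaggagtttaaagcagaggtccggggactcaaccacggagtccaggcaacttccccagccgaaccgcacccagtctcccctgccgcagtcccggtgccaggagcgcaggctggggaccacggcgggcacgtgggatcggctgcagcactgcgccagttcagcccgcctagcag
Il6st: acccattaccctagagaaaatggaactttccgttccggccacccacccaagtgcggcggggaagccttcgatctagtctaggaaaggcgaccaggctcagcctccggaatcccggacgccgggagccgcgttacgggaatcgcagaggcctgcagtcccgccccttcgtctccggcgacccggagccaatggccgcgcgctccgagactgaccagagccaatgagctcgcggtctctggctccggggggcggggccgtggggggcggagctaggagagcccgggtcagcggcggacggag
They lie at chr15:9529827-9530126 (minus), chrX:101268206-101268505 (minus), chr5:147400440-147400739 (minus) and chr13:112463820-112464119 (plus). Il7r and Il2rg each held 1 ETS and 1 RUNX match, which did not overlap, and Flt3 and Il6st held 0 matches to any of the motifs. ETS matches were not confined to these members. Among the remaining members with a window, Csf3r, lower in both CLP libraries, held 4 ETS matches, each Kit window held 1, and Tek held 1 GATA match. Over all 32851 windows, 35.4% held the ETS letters, 16.8% the RUNX, 11.2% the GATA and 20.2% the E-box letters. The 4 members thus had no motif in common among those searched.

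The genes nearest in pattern were found over the 4 libraries for the receptors of the gates and for Flt3, by the distance of log2(FPKM + 1) among genes with a row in every library. For Kit they were Spns2, 0610012G03Rik and Cdca5, at distances of 0.25, 0.39 and 0.40, and 97 of 8245 genes lay within 1. For Flt3 they were Sepp1, Stt3b and Dctn5, at 0.95, 1.03 and 1.08, with 1 gene within 1. For Il7r they were Prkca, Dip2b and Net1, at 2.42, 2.75 and 2.76, with 0 of 8246 within 1. The pattern of Kit was thus common in these libraries, and that of Il7r had no close match among the genes compared. Genes without a row in some library, as Il7r itself in WT HSC, were not among the candidates. Whether such genes lie closer to Il7r was therefore not looked at.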

How the data were processed

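RNA-seq was measured in 4 libraries, 1 for each of HSC and CLP in both genotypes. Paired-end reads were aligned by the authors to mm9 with the Tuxedo suite (TopHat 1.4.0 by the submitters' processing notes), and 1 FPKM per gene row was deposited. The version of the quantifier and its annotation are not given in the sources used here. Rows of 1 symbol were summed, no row was taken as 0, and the 333 of 12750 genes or joint names found in joint rows were left out. Depth was estimated from low FPKM of genes with 1 transcript of at least 1500 bases. Comparisons were log2 ratios with a pseudocount of 1 and a threshold of 1, beside the share of all genes with a row in at least 1 library compared. No p-value was computed, as each group is 1 library.

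The members and lists were chosen with earlier results of these data known. The rule named all members, their partners and ligands and the sort genes, examples from the 3 highest genes by mean FPKM of each list, and the 3 genes nearest in pattern to Kit, Flt3 and Il7r. Socs1, Socs2, Stat5a, Stat5b, Jak2, Ccr2, C1qb, Kdr, Cdh5, Pax5, Vpreb1, Rag2 and the lineage genes other than the highest 3 were named outside this rule after their values were seen. Some list genes are not reported here and were left out of the list counts and sums. Alternatives were the pseudocount, a filter on low FPKM, 2 rescalings, the highest row per symbol and a stricter threshold. The tools were matplotlib 3.10.9, Biopython 1.88, scipy 1.17.1, pandas 2.3.3 and numpy 2.4.6 under Python 3.11.15, and the computation was tested on simulated data.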

Additional observations from a re-analysis of the deposited data

Results flagged for a closer look

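For 5 receptors the difference between the libraries labelled GRK6-/- and WT had opposite signs in HSC and CLP. With 1 library per group this was not tested, and the values are log2 ratios of FPKM + 1. Kit was at -0.62 in HSC and 1.61 in CLP. Flt3 was at -1.16 and 0.82. Csf3r was at -0.48 and 0.00, the latter being equal levels. Csf1r was at 2.73 and -4.14, and Il7r at 1.06 and -0.67, where the second value of Csf1r and the first of Il7r count a library without a row as 0 and are no measure of size. Over all genes compared in both populations, 50% had opposite signs.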

How the results depend on the processing

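No paired analysis was possible because each group has 1 library, and for the same reason no replicate could be left out. A stricter threshold of 2 on the log2 scale left 2 of 9 members in GRK6-/- against WT in HSC (of 5), 1 in CLP (of 3), and 3 in CLP against HSC both in WT (of 7) and between the libraries labelled GRK6-/- (of 6), and 1445, 2775, 2292 and 2240 of all genes in place of 4346, 5593, 5209 and 5340. A pseudocount of 5 left 3 members in HSC and 2258, 3623, 3168 and 3145 of all genes. Of 180 recomputed fold changes of the members, 8 crossed the 2-fold change, and 0 of those past it as first computed changed sign. At a pseudocount of 5, Tek and Il7r in GRK6-/- against WT HSC, Tek and Csf3r in CLP against HSC in WT, and Il6st in CLP against HSC between the libraries labelled GRK6-/- no longer passed. Kit in CLP against HSC in WT passed at a pseudocount of 0.1 (-1.02) and after rescaling to a median log2 ratio of 0 (-1.03), and Tek between the libraries labelled GRK6-/- passed at 0.1. The sign of Csf3r in CLP, at 0.00, became -0.01 with equal upper quartiles. Counts for low members rest on 1 to 36 estimated fragments from 13 to 15 cells, and differences between animals cannot be told apart from those between genotypes or populations.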
